A study of Mus musculus with 5 samples.

Results

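The genes described here encode 7 orphan nuclear receptors, *Nr0b1*, *Nr5a2*, *Nr6a1*, *Nr2f1*, *Nr2f2*, *Nr2f6* and *Nr2e1*, out of 19897 genes with a matched probe. They were chosen by name, and every probe whose accession belonged to 1 of them was taken, which gave 9 of 55681 mouse probes, 2 each for *Nr5a2* and *Nr2f1* and 1 for each other gene. *Nr0b1* and *Nr5a2* were treated as the ES-type receptors and *Nr2f1*, *Nr2f2* and *Nr2f6* as the RA-induced receptors, whereas *Nr6a1* and *Nr2e1* stood in neither group. RNA was collected from wild-type mouse embryonic stem (ES) cells, labelled male, and from their progeny on the way to motor neurons, and each of the 5 time points was measured on 1 Agilent one-colour array. Per the labels, ES was the undifferentiated culture, Day2 embryoid bodies (EBs) after 8 h of retinoic acid (RA), Day3 and Day4 EBs after 1 and 2 days of RA, and Day7 motor neurons after 5 days of RA. All groups were wild type. The treatment protocol in the labels had RA and Shh present from day 2 to day 5, which does not give 5 days of RA, and the study's methods name the smoothened agonist SAG in place of Shh. With 1 array per time point there were no replicates, so their number limits the precision of every value, no test was made, and the 4 comparisons with ES share 1 ES array. No array of differentiating cells without RA was analysed here, at Day2 or later. In comparisons of ES with any later array, EB formation, time in culture and RA with Shh or SAG therefore cannot be told apart. Day7 alone was on the second slide, so for that array the slide cannot be told apart from the time point.

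Nuclear receptors are transcription factors that bind DNA through zinc fingers, mostly at copies of a short hexamer, and that recruit coactivators or corepressors through a ligand-binding domain. Orphan receptors are those found before, or without, a natural ligand. *Nr0b1* (Dax1) and *Nr5a2* (Lrh1) belong to the transcription factor network of ES cells, *Nr6a1* (GCNF) represses the pluripotency gene *Pou5f1* during differentiation, *Nr2f1* and *Nr2f2* (COUP-TFI and COUP-TFII) are RA-responsive regulators of neural and mesenchymal development, and *Nr2e1* (Tlx) keeps neural stem cells of the forebrain.

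From ES to Day2, 3 of the 7 receptors rose at least 2-fold (*Nr2f2*, *Nr2f1* and *Nr6a1*) and 1 fell (*Nr5a2*), against 10.7% of 18317 genes with a value that rose and 11.3% that fell. From ES to Day3, 4 receptors rose (*Nr2f1*, *Nr2f2*, *Nr2f6* and *Nr6a1*) and 2 fell (*Nr0b1* and *Nr5a2*), so each of the 6 receptors with a value had changed at least 2-fold, where 15.6% of 15204 genes rose and 10.2% fell. The counts at Day4 were again 4 raised and 2 lowered of 6, with 17% of all genes raised and 14.4% lowered. From ES to Day7, 2 rose (*Nr2f1* and *Nr2f2*) and 3 fell (*Nr0b1*, *Nr5a2* and *Nr6a1*), with 24.8% of 15839 genes raised and 24.4% lowered. Between successive time points, 2 receptors rose from Day2 to Day3 (*Nr2f1* and *Nr2f6*) and 1 fell (*Nr0b1*), against 13% and 7.76% of all genes. From Day3 to Day4, 2 rose (*Nr2f2* and *Nr2f1*) and 0 fell, against 3.62% and 4.87%. From Day4 to Day7, 1 rose (*Nr2f1*) and 1 fell (*Nr6a1*), against 18.1% raised and 18.1% lowered over all genes. All probes of the 7 genes except that of *Nr2e1* were well above background on all 5 arrays. In these mixed cultures, fewer cells of a type and less RNA per cell cannot be told apart.

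**Figure D1:**
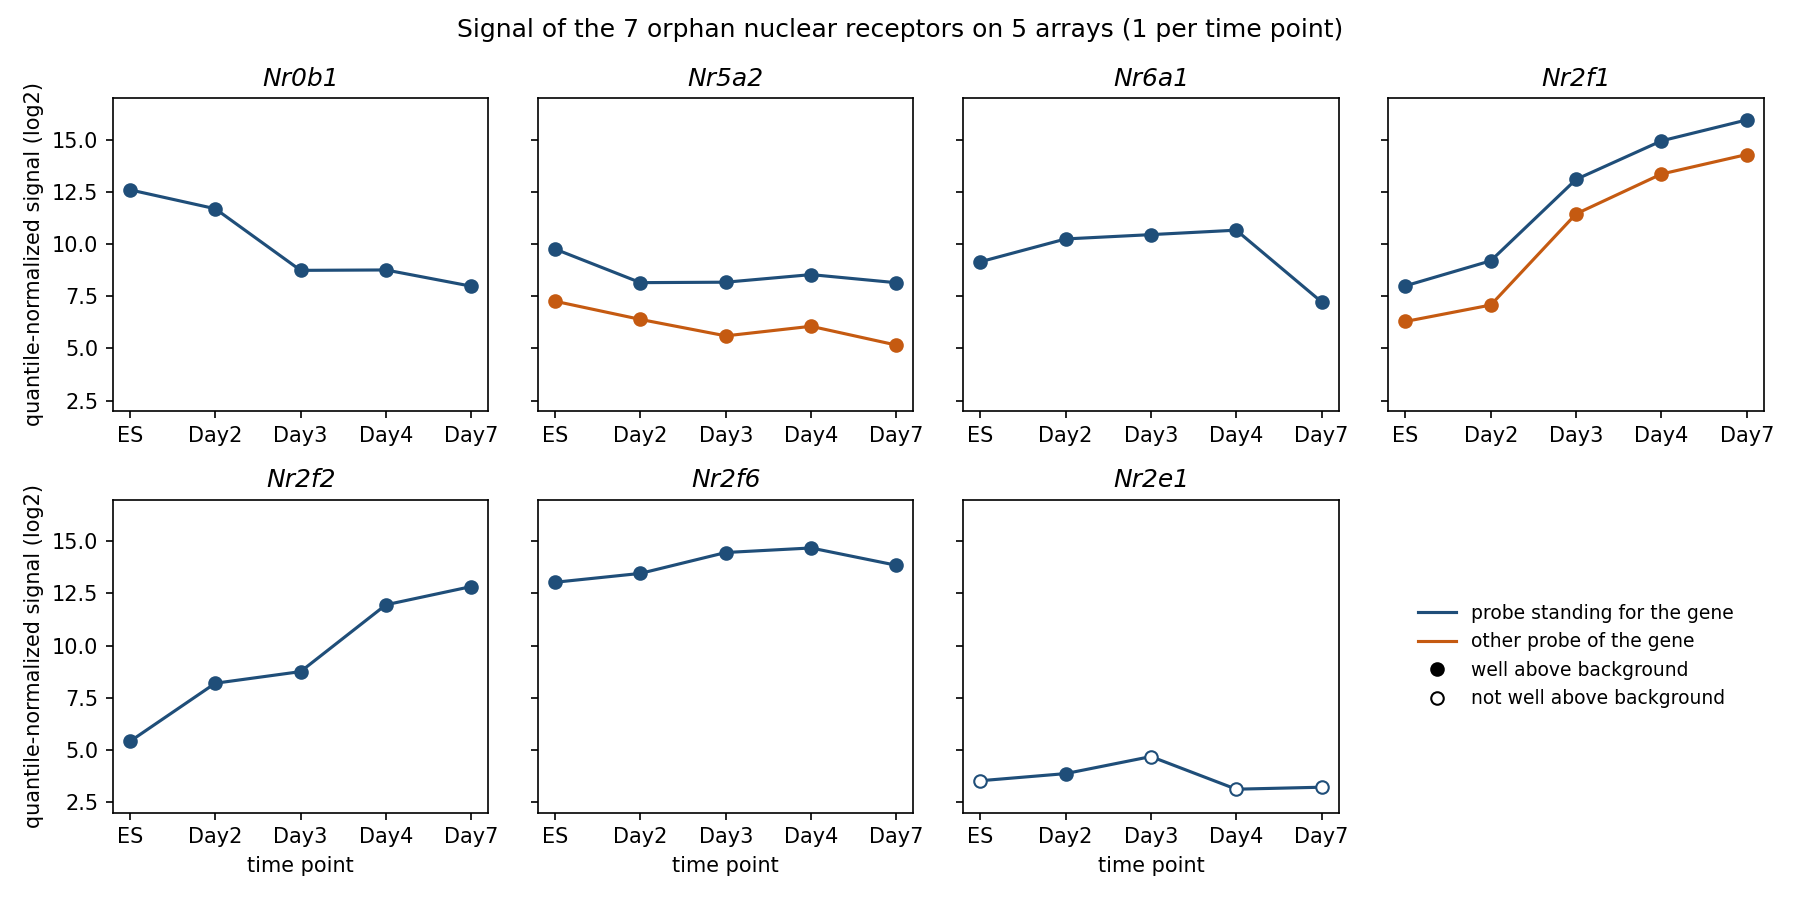
Quantile-normalized log2 signal (vertical axis) of each probe of the 7 receptors at the 5 time points (horizontal axis), with 1 array per time point and no error bars. Filled points are well above background and hollow points are not; *Nr0b1* ran from 12.60 in ES cells to 7.98 on Day7, and *Nr2f1* from 8.00 to 15.95.

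*Nr0b1* encodes an atypical receptor without the usual DNA-binding domain, which acts mainly as a corepressor. Its quantile-normalized log2 signal was 12.60 on the ES array and 11.69, 8.74, 8.76 and 7.98 on those of Day2, Day3, Day4 and Day7. The signal was high in ES cells and after 8 h of RA and low on the 3 later arrays. The change of -0.91 from ES to Day2 stayed under 2-fold, the gene fell by 2.95 from Day2 to Day3 (7.74-fold), and the step from Day3 to Day4 was 0.02. By Day3, 83.6% of the log2 change between ES and Day7 had taken place. The fall from ES to Day7 was 4.62 on the log2 scale (24.6-fold) and ranked 42 from the lowest among 13854 genes measured on both arrays. The probe was spotted 10 times per array, with 1 outlier spot left out on Day2, and the SD between its spots was 0.05, 0.07, 0.08, 0.06 and 0.06 on the arrays in order of time. On the quantile-normalized scale the difference between Day3 and Day4 lay within this technical spread and the differences between the other neighbouring arrays were larger. Spots of 1 array carry no error between arrays or cultures. Without normalization the step from Day3 to Day4 was -0.38, where the median of all genes moved by -0.48. The last step, from Day4 to Day7, was -0.78 after quantile normalization and 0.49 without normalization, where the median of all genes moved by 1.06. Relative to the median of all genes it was -0.66 and -0.56 on these scales. With the 75th percentile shift the change from ES to Day2 was -1.27, past 2-fold.

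*Nr5a2* encodes a monomeric receptor that activates *Pou5f1* in the early embryo. Its brighter probe read 9.76 at the start, then 8.15, 8.17, 8.54 and 8.15 at Day2, Day3, Day4 and Day7. This probe had dropped by Day2 and later changed by less than 2-fold between neighbouring arrays, in contrast to the delayed drop of *Nr0b1*, although without normalization its change from Day2 to Day3 was -1.07, on a scale on which the median of all genes moved by -0.81. The fall from ES to Day2 was 1.61 on the log2 scale (3.05-fold), which was 99.8% of the change between ES and Day7. The contrast with *Nr0b1* at Day2 depended on the scale. With the 75th percentile shift the changes from ES to Day2 were -1.37 for *Nr5a2* and -1.27 for *Nr0b1*, both past 2-fold. Without normalization they were -1.14 and -1.05. The other probe was at 7.26, 6.39, 5.60, 6.06 and 5.16 on the 5 arrays. On this quantile-normalized scale it too was highest in ES cells, but its change to Day2 was -0.87, under 2-fold, and its lowest value was on Day7. Before normalization its signal was 161.6, 185.0, 29.4, 35.5 and 39.5 on the 5 arrays, highest on Day2 and lowest on Day3. From ES to Day7 the brighter probe fell by 1.61 and the other by 2.10, so the probes shared the direction and differed in how early the fall came. *Nr5a2* ranked 1705 from the lowest of the 13854 genes, whereas *Nr0b1* ranked 42, so the falls of the ES-type receptors were of unequal size.

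*Nr2f1* encodes COUP-TFI, which patterns the hindbrain and the cortex. Its brighter probe read 8.00 in ES cells, and 9.20, 13.10, 14.94 and 15.95 from Day2 through Day3 and Day4 to Day7. The values rose with every array, and the largest step came between 8 h and 1 day of RA. The rise was 1.20 from ES to Day2 (2.30-fold), 3.90 from Day2 to Day3 (14.9-fold) and 1.85 from Day3 to Day4 (3.59-fold). From Day4 to Day7 the rise was 2.01-fold, at the edge of the 2-fold rule, and in log2 units it came to 0.60 with the 75th percentile shift and to 1.91 without normalization. From ES to Day7 *Nr2f1* rose by 7.95 (247-fold), rank 10 from the highest among the 13854 genes measured on both arrays. The second probe was at 6.29, 7.08, 11.45, 13.36 and 14.29 on the 5 arrays in order of time. It traced the same steps and rose by 8.00 from ES to Day7 (256-fold). Its changes from ES to Day2, 0.79, and from Day4 to Day7, 0.94, were under 2-fold on the quantile-normalized scale. Before normalization its signal was 80.5 in ES cells and 256.1 on Day2, more than 2-fold higher.

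*Nr2f2* encodes COUP-TFII, a regulator of venous, mesenchymal and neural cells. Its log2 signal was 5.41, 8.20, 8.76, 11.96 and 12.83 on the 5 arrays in the same order. The order of the arrays was that of *Nr2f1*, but the steps fell elsewhere, with a rise by Day2, a change of less than 2-fold to Day3 and another rise to Day4. Without normalization the step from Day2 to Day3 was -0.48, and 0.33 relative to the median of all genes. *Nr2f2* rose by 2.79 from ES to Day2 (6.90-fold), changed by 0.56 from Day2 to Day3, rose by 3.20 from Day3 to Day4 (9.20-fold) and changed by 0.87 from Day4 to Day7. Under normexp background correction the rise was 1.57 to Day2 and 2.03 from ES to Day3, smaller and past 2-fold. The step from Day3 to Day4 ranked 11 from the highest among 14279 genes measured on both arrays, and the same step of *Nr2f1* ranked 129. From Day2 to Day3 the ranks were reversed, with *Nr2f1* at 41 and *Nr2f2* at 4200 of 14405 genes. By Day3, *Nr2f1* had made 64.2% of its log2 change between ES and Day7 and *Nr2f2* 45.1%, and by Day4 the shares were 87.4% and 88.2%. From ES to Day7 *Nr2f2* rose by 7.42 (171-fold). This size depends on the low ES signal, and the rise was 5.75 under normexp background correction. The ES signal of 5.41, although well above background, lay below the 95th percentile of the ERCC control probes on that array, 6.58. When values under this percentile of their array were raised to it, a choice made after seeing the data, the rise was at least 6.25.

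*Nr2f6* encodes a COUP-TF relative known as a transcriptional repressor, including in lymphocytes. Its log2 signal was 13.04 before RA, 13.46 at Day2, 14.46 at Day3, 14.68 at Day4 and 13.85 at Day7. The values formed a low arch with its top on Day4, and the gene was already well above background before RA. Without normalization the steps from Day3 to Day4 and from Day4 to Day7 were -0.30 and 0.30, and relative to the median of all genes they were 0.18 and -0.75, in the directions of the arch. The change was 0.42 at Day2, under 2-fold, and the gene rose by 1.43 to Day3 (2.69-fold) and by 1.64 to Day4 (3.12-fold), while the difference between ES and Day7 was 0.81. From Day2 to Day3 the change just passed 2-fold, and on the log2 scale it was 0.99 after the 75th percentile shift. Without normalization the rise to Day4 was 0.27, on a scale on which the median of all genes moved by -1.06, so that relative to the median it was 1.34. *Nr2f6*, grouped by name as RA-induced, was thus raised at least 2-fold against ES on Day3 and Day4 and not on Day2 or Day7.

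The median log2 change of the ES-type receptors was -1.26 at Day2, -2.72 at Day3, -2.53 at Day4 and -3.11 at Day7, each against ES. Over the RA-induced receptors the median was 1.20, 3.34, 6.55 and 7.42 at the same time points. All genes with a value had medians of 0.00, 0.06, 0.05 and -0.07. The groups therefore moved in opposite directions on all 4 arrays after ES, also without normalization and with the 75th percentile shift, the direction being the one that their names already hold, with 2 and 3 genes per group. Within each group 1 gene moved much less than the rest by Day7, *Nr5a2* with a change of -1.61 and *Nr2f6* with 0.81.

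*Nr6a1* behaved like neither group. Its log2 signal was 9.15 in ES cells, lay at 10.25, 10.45 and 10.67 in the EBs of Day2, Day3 and Day4, and was 7.23 on Day7. The gene was higher on the 3 EB arrays than in ES cells and lower than in ES cells on Day7. It rose by 1.09 from ES to Day2 (2.13-fold), by 1.30 to Day3 (2.46-fold) and by 1.51 to Day4 (2.86-fold), and then fell by 3.44 from Day4 to Day7 (10.8-fold). That last fall ranked 62 from the lowest among 14518 genes measured on both arrays, and the change from ES to Day7 was -1.92 (3.79-fold). Without normalization the change from ES to Day3 was 0.83 and that from ES to Day4 0.56, both under 2-fold, and relative to the median of all genes these were 1.46 and 1.63. *Pou5f1*, the gene that *Nr6a1* is known to repress, was at 12.39, 11.68, 10.01, 8.90 and 8.22 on the 5 arrays. On the quantile-normalized scale it was lower on each later array, through the time points at which *Nr6a1* was high and on to Day7, at which *Nr6a1* was low. *Pou5f1* changed by -0.72 while *Nr6a1* rose by 1.09, from ES to Day2, and fell by 1.66 from Day2 to Day3 while *Nr6a1* changed by 0.21.

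*Nr2e1* passed the mark of well above background on Day2 only. Its quantile-normalized log2 signal was 3.53, 3.87, 4.68, 3.12 and 3.22 on the 5 arrays, and before normalization its signal was 11.5, 59.1, 14.3, 4.13 and 7.59. The Day2 signal was the highest before normalization but not after it, and no fold could be given on the quantile-normalized scale. On other scales the gene rose from ES to Day2, by at least 1.44 with the 75th percentile shift or the deposited values and by at least 1.67 without normalization, which made 4 receptors raised at Day2 in place of 3. On the Day2 array 86.7% of mouse probes passed this mark, beside 59.2% on ES, 57.5% on Day3, 65.7% on Day4 and 62.4% on Day7, and for ERCC probes, which match no mouse gene, the share was 65.6% on Day2 and at most 9.38% on the other arrays. Of the 49 nuclear receptor genes listed, 7 were well above background on Day2 alone (*Nr2e1*, *Nr0b2*, *Hnf4g*, *Thrb*, *Nr1h4*, *Nr1i2* and *Esr1*), a share of 14.3%, and of all 19897 genes 2188 were, a share of 11%. The part of the raised background in the Day2 signal of *Nr2e1* was not tested.

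Among 18 other orphan or adopted-orphan receptors, 12 had a value from ES to Day7, of which 4 rose and 4 fell, with a median of 0.13 beside -0.07 for all genes. *Esrrb*, which binds beside the core pluripotency factors, was at 14.51, 12.05, 11.93, 12.10 and 10.88 on the 5 arrays. It fell by 2.46 from ES to Day2, early as *Nr5a2* did, and its change from ES to Day7 was -3.64 (12.4-fold). *Nr4a1*, an immediate early receptor, was at 13.60 in ES cells and 10.46 on Day7 and fell by 3.14, while its relative *Nr4a2*, known from dopaminergic neurons, was at 8.18 in ES cells, 8.46 on Day4 and 11.67 on Day7 and rose by 3.49. The orphan receptor *Esrrg* was dim on the ES array, that is, not well above background, and rose at least 120-fold to Day7, and *Rorb* rose at least 6.69-fold. The clock repressor *Nr1d1* fell at least 6.68-fold. The testicular receptors *Nr2c1* and *Nr2c2*, which bind the same direct repeats as the COUP-TFs, changed by 0.55 and -0.04 from ES to Day7, both under 2-fold.

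**Figure D2:**
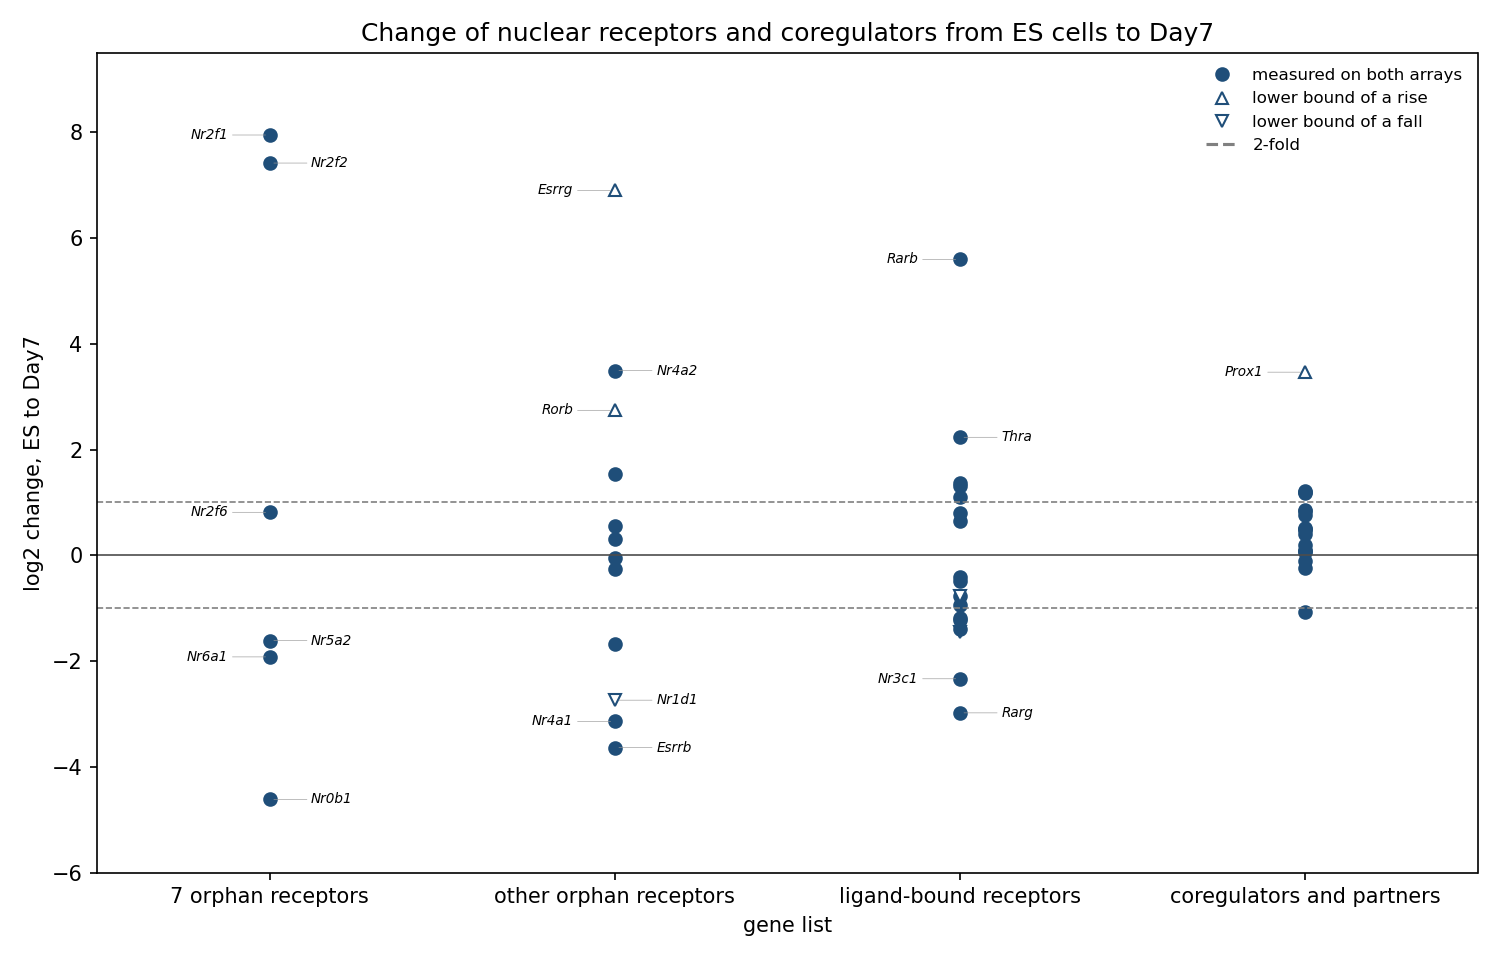
Log2 change from ES to Day7 (vertical axis) of each gene with a value in 4 lists of nuclear receptors and coregulators (horizontal axis), with 1 array per time point. Circles were measured on both arrays, triangles are bounds, dashed lines mark 2-fold, and names are given for the 7 receptors and for genes changed at least 4-fold; *Nr2f1* at 7.95 and *Nr2f2* at 7.42 lie highest and *Nr0b1* at -4.62 lowest among the genes drawn.

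Of 24 receptors with known ligands, 18 had a value from ES to Day7, 5 rose and 6 fell, and the median was -0.62. Among the RA receptors, *Rarb*, itself a direct RA target, was at 6.82, 12.09, 12.51, 12.77 and 12.42 on the 5 arrays. It had made its rise of 5.27 (38.5-fold) by Day2, when *Nr2f1* had risen by 1.20 and *Nr2f2* by 2.79. *Nr2f1* and *Nr2f2* thus reached their high levels on later arrays than *Rarb*, whereas *Nr2f6* was already at 13.04 in ES cells. *Rara* rose by 1.10 from ES to Day7 and *Rarg* fell by 2.98 (7.89-fold). Of the retinoid X receptors, the dimer partners of many receptors, *Rxra* fell by 1.40 and *Rxrb* and *Rxrg* changed by -0.48 and 0.66. *Thra* rose by 2.23 (4.70-fold) and the glucocorticoid receptor gene *Nr3c1* fell by 2.33 (5.04-fold).

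Among 18 coregulators and partners of the receptors, 4 rose and 1 fell from ES to Day7, with a median of 0.49. *Prox1*, a corepressor of *Nr5a2*, was dim in ES cells, read 2.73, 5.81, 7.35 and 7.64 on the later arrays, and was raised on Day7 relative to ES, with a log2 change of at least 3.46. The coactivator *Ncoa2* rose by 1.18, the RA-induced corepressor *Nrip1* by 1.20, and *Cnot1* fell by 1.07. The COUP-TF partners *Bcl11a* and *Bcl11b* changed by 0.77 and 0.83 from ES to Day7. *Bcl11a*, chosen with *Bcl11b* after their values were seen, was at 10.10, 10.10, 6.17, 5.53 and 10.87 on the 5 arrays, and *Bcl11b* was not well above background on Day3 and Day4. Both partners were thus low on the arrays on which *Nr2f1* and *Nr2f2* made their steepest rises.

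Gene lists for cell states and cell types were read on the same arrays. Of 15 pluripotency genes tied to *Nr0b1*, *Nr5a2* and *Nr6a1*, 12 fell and 0 rose from ES to Day7, with a median of -3.57, and their summed signal was 317763, 208998, 135774, 91760 and 42608 from ES to Day7, with *Dppa5a* the brightest on each. *Nanog*, *Sox2* and *Tbx3* were under 2-fold from ES to Day7, at -0.40, -0.77 and -0.30, but each had passed 2-fold earlier, *Nanog* with -2.41 and *Tbx3* with -1.70 at Day2 and *Sox2* with -1.27 at Day4. The falls of *Nanog* and *Tbx3* did not last, and at Day4 their changes from ES were 0.78 and -0.35. Of 14 direct RA response genes, 13 rose by Day2 with a median of 4.73, beside 1.20 for the RA-induced receptors, and 13, not all of them the same genes, were raised from ES to Day7, where the median was 4.46 beside 7.42. On Day7 the RA response genes were on the way down, with 9 of 14 lowered from Day4 to Day7, whereas *Nr2f1* rose and *Nr2f2* changed by 0.87.

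Of 9 motor neuron genes with a probe, all 9 rose from ES to Day7, with a median of 6.06, and their summed signal was 3145, 5599, 5382, 5342 and 105248 from ES to Day7, led by *Slc18a3* on Day7. Of 12 neuron genes 11 rose, with a median of 5.52, and of 10 neural progenitor genes 8 rose and 2 fell (*Pax6* and *Olig2*), with a median of 3.77. *Nr2f1* and *Nr2f2* had made 87.4% and 88.2% of their log2 change by Day4, when the summed motor neuron signal was still 5342.

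Other cell types were also read, because *Nr2f2* is known from mesenchyme and endothelium. Of 10 mesoderm and mesenchyme genes, 9 had a value from ES to Day7, 3 rose and 2 fell, with a median of 0.32, and the summed signal was 12258, 7905, 12037, 27066 and 15819 from ES to Day7. Its brightest gene was *Acta2* on Day4 and *Kdr* on the other arrays; *T* was not well above background from Day3 on, and *Mixl1* was well above it on Day2 alone. At Day3 and at Day4, 3 of the 9 genes with a value rose and 1 fell, with medians of -0.10 and 0.12. *Meox1* rose at least 35.7-fold to Day3 and at least 21.3-fold to Day4, *Pdgfra* at least 8.55-fold and at least 10.2-fold, and *Acta2* 5.49-fold and 42.1-fold. Of 8 endoderm genes, 7 had a value at Day3, of which 6 rose and 0 fell with a median of 1.61, and 7 at Day4, of which 5 rose and 0 fell with a median of 2.13, where *Gata6* rose 19.2-fold. From ES to Day7, 6 had a value, 2 rose (*Foxa2*, also a floor plate gene, and *Cxcr4*) and 2 fell, with a median of -0.23, and the summed signal was 698, 1168, 2760, 5759 and 19613 from ES to Day7, led by *Gata4* in ES cells and by *Foxa2* later, while *Afp* was well above background on no array. Of 6 trophoblast genes, 5 had a value, 0 rose and 3 fell, with a median of -1.05 and a summed signal of 28748, 20586, 43981, 85857 and 15855 from ES to Day7, led by *Krt18*. Of 6 glial genes, 4 had a value, 2 rose and 2 fell, with a median of -0.06; *Gfap* and *S100b* were not well above background on Day7. Of 10 housekeeping genes 1 rose and 2 fell, with a median of 0.00. In ES cells 6 of the 8 endoderm, 7 of the 10 mesoderm and mesenchyme, 5 of the 6 trophoblast and 4 of the 6 glial genes were already well above background. The part of other cell types in the rise of *Nr2f2* was not tested.

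The genes whose course was most like that of each receptor were found by the root mean square difference of centred log2 signals over the 5 arrays, among 18639 genes well above background at least once. Nearest to *Nr0b1* were *Fgf4* at 0.21, *Slc7a7* at 0.26 and *Blnk* at 0.30. *Fgf4*, a growth factor of ES cells, fell by 3.09 from Day2 to Day3 and by 4.93 from ES to Day7, beside 2.95 and 4.62 for *Nr0b1*, whose changes were -2.95 and -4.62. *Nr5a2* was most like *S100a5*, *Trim25* and *Zfp710*, each at 0.10 to 0.11. *Nr6a1* was most like *Tmem88* at 0.14, *Des* at 0.22 and *Gli3* at 0.26, the last a transcription factor of the hedgehog pathway. The courses of *Nr2f1* and *Nr2f2* had no near match, with *Ctsj* at 0.68 and *Tpbpb* at 0.84 for *Nr2f1* and *Zfp503* at 0.55, the Notch target *Hes5* at 0.56 and *Ctsj* at 0.69 for *Nr2f2*. *Nr2f1* and *Nr2f2* differed by 1.08 and each ranked 25 in the list of the other, whereas *Nr2f6* ranked 2965 for *Nr2f1*, and *Nr5a2* ranked 2312 for *Nr0b1*. *Nr2f6* was most like *Smpd2* at 0.02, *Tcn2* at 0.07 and *Gmppa* at 0.08. For *Nr2e1*, whose values were set at the floor on 4 arrays, the measure gave only other genes well above background on Day2 alone, such as *Myl10* and *Kcng4*, at 0.00 each, and carries no information on the gene.

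Genes beside the receptors in the RefSeq table of GRCm38.p6, used here for neighbours only, were read where they had a probe. *Ocel1*, beside *Nr2f6*, fell by 1.67 from ES to Day7 and *Ushbp1* on its other side changed by -0.33. *Ushbp1* was at 7.30, 6.63, 7.09, 7.43 and 6.97 on the 5 arrays, with its top on Day4 as for *Nr2f6* and no change from ES past 2-fold. *Mageb4*, beside *Nr0b1*, fell by 2.94 from ES to Day2 and by at least 1.19 to Day7, and *Samt3* on the other side was well above background on no array. *Nr5a1*, the closest relative of *Nr5a2* and the neighbour of *Nr6a1*, was at 8.58, 9.13, 8.45, 8.52 and 8.32 on the 5 arrays and did not pass 2-fold in any comparison with ES, while *Olfml2a* on the other side of *Nr6a1* was well above background on Day2 only. *Snx3* beside *Nr2e1* changed by -0.15 from ES to Day7. The neighbours of *Nr5a2*, *Nr2f1* and *Nr2f2* and the genes overlapping *Nr6a1* (*Nr6a1os*, *Mir181a-2* and *Mir181b-2*), *Nr2f1* (*A830082K12Rik*) and *Nr2f2* (*B130024G19Rik*) had no matched probe.

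The promoter windows of all 7 receptors, 10 windows of 300 bases from 250 before to 50 after a gene start, were taken from RefSeq (GRCm38.p6) and searched on both strands for the hexamer AGGTCA that most of these receptors can bind. It was found in 3 of the 10 windows, 1 each of *Nr0b1*, *Nr5a2* and *Nr6a1*, and in 16.3% of 32851 promoters of the same length. No window of the 3 RA-induced receptors or of *Nr2e1* held these letters. The extended site TCAAGGTCA and the direct repeats AGGTCAAGGTCA (0 bases between copies), AGGTCANAGGTCA (1 base), AGGTCANNAGGTCA (2 bases) and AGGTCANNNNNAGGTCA (5 bases), all of which contain the hexamer, were in none of the 10 windows and in 0.423%, 0.00609%, 0.0396%, 0.00913% and 0.00913% of all promoters. A looser search for AGGTCA or AGTTCA or GGGTCA or GGTTCA, added after the strict search had been read, matched 43.7% of all promoters and also 1 window each of *Nr2f1*, *Nr2f6* and *Nr2e1*. The windows of the ES-type receptors and of *Nr6a1* that held AGGTCA and the matching window of *Nr2f1*, the receptor with the largest rise, are printed so that the letters can be seen in place, 5′ to 3′ on the strand of the gene, with matches to the looser search on either strand in capitals. They lie at chrX:86191525-86191824 (plus strand) for *Nr0b1*, chr1:136960399-136960698 (minus strand) for *Nr5a2*, chr2:38784466-38784765 (minus strand) for *Nr6a1* and chr13:78196400-78196699 (minus strand) for *Nr2f1*.
Nr0b1: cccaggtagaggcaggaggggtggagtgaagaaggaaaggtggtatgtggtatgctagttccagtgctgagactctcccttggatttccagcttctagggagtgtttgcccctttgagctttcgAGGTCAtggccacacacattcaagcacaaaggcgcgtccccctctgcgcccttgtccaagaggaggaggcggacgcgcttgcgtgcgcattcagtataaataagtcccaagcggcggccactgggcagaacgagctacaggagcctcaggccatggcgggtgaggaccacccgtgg
Nr5a2: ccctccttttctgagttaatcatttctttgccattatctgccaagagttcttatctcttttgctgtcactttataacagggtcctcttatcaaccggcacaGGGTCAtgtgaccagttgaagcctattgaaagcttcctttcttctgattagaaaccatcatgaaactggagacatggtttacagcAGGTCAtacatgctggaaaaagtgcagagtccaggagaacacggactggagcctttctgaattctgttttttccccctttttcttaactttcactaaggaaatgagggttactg
Nr6a1: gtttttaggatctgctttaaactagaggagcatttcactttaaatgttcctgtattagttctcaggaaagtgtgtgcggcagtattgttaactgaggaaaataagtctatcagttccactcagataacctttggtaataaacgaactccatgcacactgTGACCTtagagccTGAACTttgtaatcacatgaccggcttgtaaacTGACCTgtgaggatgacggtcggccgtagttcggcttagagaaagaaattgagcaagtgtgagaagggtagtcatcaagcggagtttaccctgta
Nr2f1: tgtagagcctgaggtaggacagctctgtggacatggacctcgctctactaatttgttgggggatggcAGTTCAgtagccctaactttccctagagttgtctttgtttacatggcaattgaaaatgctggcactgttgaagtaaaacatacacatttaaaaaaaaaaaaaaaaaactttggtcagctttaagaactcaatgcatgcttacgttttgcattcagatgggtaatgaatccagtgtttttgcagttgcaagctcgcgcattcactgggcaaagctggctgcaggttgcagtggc

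Counted from the 5′ end of the window, AGGTCA lay at bases 125 to 130 for *Nr0b1* and 187 to 192 for *Nr5a2*. In *Nr6a1* it was on the opposite strand at bases 160 to 165 and 206 to 211. The GC content of the windows ran from 42% for this *Nr5a2* window to 82.7% for *Nr2f6*, around a median of 52.7% over all promoters. A match describes letters only, and no measurement of binding was made here.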

How the data were processed

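The authors deposited the intensity of each spot from Agilent Feature Extraction 10.5.1, named in the submitters' processing notes, background-subtracted and not normalized between arrays. They also deposited log2 values, which equalled the log2 median signal of a probe minus the 75th percentile of its array within 0.01 for at least 99.3% of probes. Control and outlier spots were dropped, log2 intensities were averaged over the spots of each probe, and arrays were quantile-normalized (limma 3.58.1, R 4.3.3), a method the study names. Python 3.11.15, numpy 2.4.6, pandas 2.3.3 and matplotlib 3.10.9 did the rest. Accessions of 26300 probes matched 19897 genes of RefSeq GRCm38.p6, and each gene was represented by its probe of highest mean signal (5339 genes had several). A dim probe, one not well above background, took its own value or, if higher, the lowest value of a probe well above background on that array, and its change is written as at least a size. No fold was given where both sides were dim or the brighter did not exceed that level, and the latter entered medians as 0. Called genes changed at least 2-fold, a rule of size. The median SD between spots of a probe ran from 0.06 on Day7 to 0.11 on Day2. The members and gene lists were chosen with earlier results of these data known. Named were the 7 receptors, listed receptors and coregulators changed at least 4-fold from ES to Day7, *Esrrb*, *Nr2c1*, *Nr2c2*, the RA and retinoid X receptors, cell type markers, neighbours and the 3 genes most alike in course; other names were chosen after their values were seen, and some genes within this rule are not reported here. Alternatives were a 75th percentile shift, no normalization, normexp (offset 50, planned on mean and run on median spot signals), the deposited values, a different mark of detection, no filter on dim probes, probes measured on both arrays alone, averaging a gene over its probes, and calling at 1.5-fold and 4-fold.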

Additional observations from a re-analysis of the deposited data

Results flagged for a closer look

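On the Day2 array 65.6% of the ERCC probes, control probes that match no mouse gene and enter no comparison, were well above background, against 7.29% on ES, 4.17% on Day3, 9.38% on Day4 and 7.29% on Day7. This signal lies outside the measured genes and above the level of the ES array. Among the receptors it bears on *Nr2e1*, which was well above background on that array alone, and its part in the values of dim genes on Day2 was not tested. The normalized log2 signal of *Nr2f2* on Day2 was 8.20, above the 95th percentile of the ERCC probes there, 7.39, whereas on the ES array it was 5.41, below that percentile of 6.58.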

How the results depend on the processing

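No paired analysis was possible because 1 array stood at each time point, which also left no replicate to leave out. A term for slide could not be fitted, since the second slide held Day7 and no other array. Over 10 alternatives and 2 more chosen after seeing the data (a floor at the ERCC probes and normalization without the Day2 array), 132 of 164 counts of receptors were within 1.5 times the main count, and no change of a receptor past 2-fold turned its sign. The cause of the differences was not tested where the setting is not itself the cause.

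From ES to Day2, 4 receptors were raised in place of 3, *Nr2e1* being added, with the 75th percentile shift, the deposited values or no normalization, and 2 when a gene was averaged over its probes. At 4-fold in place of 2-fold, the receptors raised were 1 from ES to Day2 in place of 3, 2 at Day3 and 2 at Day4 in place of 4, 1 from Day2 to Day3, 1 from Day3 to Day4 and 0 from Day4 to Day7, and those lowered were 0 at Day2, 1 at Day3, 1 at Day4 and 1 at Day7. At 1.5-fold, 2 were lowered from ES to Day2, and 2 were raised and 3 lowered from Day4 to Day7. With the 75th percentile shift and with the deposited values alike, 2 were lowered from ES to Day2, 1 was raised from Day2 to Day3, and 0 were raised and 2 lowered from Day4 to Day7. Without normalization, 2 were lowered at Day2, 2 were raised at Day3 and 2 at Day4, 1 was raised and 3 were lowered from Day2 to Day3, and 2 were raised from Day4 to Day7. With the other detection flag or no filter on dim probes, 5 were raised from ES to Day3 in place of 4, and 1 was lowered from Day3 to Day4. The added receptor was *Nr2e1* each time, by its dim values. From Day4 to Day7, 0 were raised under normexp, with the mean over all probes or with normalization without the Day2 array.

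The median change of the ES-type receptors from ES to Day7, -3.11, was -3.32 with the 75th percentile shift, -2.96 without normalization, -2.81 under normexp, -3.32 with the deposited values and -3.24 with the mean over all probes. That of the RA-induced receptors, 7.42, was 7.76 without normalization, 5.75 under normexp, at least 6.25 with the floor at the ERCC probes and 7.70 with normalization without the Day2 array. Without normalization the median of all genes was 0.27, -0.63 and -1.06 from ES to Day2, Day3 and Day4, and -0.81, -0.48 and 1.06 over the later steps. With the 75th percentile shift it was -0.12 at Day3, -0.11 at Day4, -0.35 at Day7 and -0.25 from Day4 to Day7.

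The share of raised genes among all called was 48.7% at Day2, 74.9% with the 75th percentile shift, 74.8% with the deposited values, 85.4% without normalization and 29.5% among probes measured on both arrays alone. From Day2 to Day3 it was 62.6%, 25.5%, 25.5%, 3.48% and 76.0%, and 49.2% with the ERCC floor. Without normalization it was 17.9% in place of 60.3% at Day3 (48.0% with the shift), 9.53% in place of 54.1% at Day4, 20.1% in place of 42.6% from Day3 to Day4 (53.0% under normexp) and 94.0% in place of 49.9% from Day4 to Day7. Genes raised ran from 840 to 4546 at Day2, 631 to 4182 at Day3, 822 to 4538 at Day4 and 2043 to 5227 at Day7, and genes lowered from 666 to 3541, 353 to 5001, 650 to 8341 and 1326 to 5618.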

Other observations

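A ligand-bound and an adopted-orphan receptor outside the 7 had a high signal on the Day2 array, chosen for mention after their values were seen. *Vdr*, the vitamin D receptor gene, was dim in ES cells, read 10.94 on Day2, 5.69 on Day3 and 5.55 on Day4, and was dim again on Day7. It rose at least 73.6-fold from ES to Day2 and fell by 5.25 from Day2 to Day3. *Hnf4a*, a regulator of liver and visceral endoderm, was at 9.97 on Day2 and dim in ES cells and on Day3, a rise of at least 55.6-fold and a fall of at least 27.0-fold. Both lay above the 95th percentile of the ERCC probes on the Day2 array, 7.39, and none of the 7 receptors had such a peak on Day2.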
